A study of Mus musculus with 12 samples.

Results

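The non-coding RNA genes that the maternal chromosome expresses in the imprinted Dlk1-Dio3 domain were examined for GZF1 occupancy in mouse embryonic stem cells. They are Gm34081, Meg3, Rian and Mirg on chromosome 12. The members were 147 bins of 1 kb (mm10) out of 2,462,755 autosomal bins and 2,725,549 bins in all: 72 bins from 109,500,001 to 109,572,000 (Gm34081 and Meg3), 59 bins from 109,603,001 to 109,662,000 (Rian) and 16 bins from 109,734,001 to 109,750,000 (Mirg). The bins were set by gene position, in a domain picked with earlier results of these data known. Gm34081 (109,493,125 to 109,540,149) begins before the first bin and filled 41 of the bins, of which 6, from 109,525,001 to 109,531,000, stand here for the intergenic differentially methylated region (IG-DMR) and 35 lie outside it. Meg3 (109,540,996 to 109,571,729) was divided into its start, the 3 bins around the annotated first base, and a body of 30 bins. Only 846 bases separate Gm34081 from Meg3, so 2 of the start bins also belong to Gm34081. Rian (109,603,945 to 109,661,716) and Mirg (109,734,981 to 109,749,458) follow on the same strand as Meg3.

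Genomic imprinting leaves a gene active on the chromosome of one parent only. In this domain the paternal copy of the IG-DMR is methylated and the maternal copy is not, and the unmethylated copy is needed for the maternal chromosome to transcribe Meg3 and the non-coding RNA genes behind it. Meg3 encodes a long nuclear RNA with a role in holding the paternally expressed neighbours silent in cis, Rian is the host of clustered C/D-box small nucleolar RNAs, and Mirg is the host of a large microRNA cluster; the function of Gm34081 is not described here. GZF1 is a BTB zinc-finger protein, and the question put by the title of the series is whether it and the zinc-finger protein ZFP57 bind the domain in opposite dependence on methylation.

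Chromatin was fixed with formaldehyde, cut with micrococcal nuclease, precipitated and sequenced. In the RGM line, a 129xCAST hybrid, the libraries were Gzf1-Flag clone 56 with anti-FLAG and wild type with anti-GZF1. In the Cas9-GFP line they were Gzf1-Flag clone 35 with anti-FLAG, a Gzf1 knockout, a wild type and a control with anti-GZF1, wild type with an antibody to acetylated histone H3 lysine 27 (H3K27ac), and input without antibody. Gzf1-Flag was expressed ectopically, each tagged line analysed is 1 clone, and the labels do not say how the control differs from the wild type or where the knockout was cut. Of 12 libraries 8 were analysed here, with 1 library analysed per group. No p-value is therefore given, intervals cover counting error of that library only, and differences between clones, cultures and antibody batches cannot be told apart from the named conditions. The 4 libraries not analysed here are a second RGM Gzf1-Flag anti-FLAG library, V65 Gzf1-Flag with anti-FLAG, and the anti-FLAG libraries of RGM and V65 cells without the tag. Background of the anti-FLAG antibody in cells without the tag could therefore not be measured. Reads were not split by allele and no RNA was measured, so the maternal origin of the genes is background to these data.

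The libraries held 10.1 to 94.2 M reads, or 3.93 reads per autosomal bin in the input, 8.61 in RGM wild type and 15.9 to 35.8 in the others. Read density below is reads per bin divided by the autosomal mean of the same library, so that 1 is the genome average. Over Gzf1 itself (chromosome 2, 148,679,384 to 148,692,949) the density was 0.688 in the knockout and 0.903 in the control, and such reads do not measure the protein or show a small edit. The density of all of chromosome 12 was 1.01 in the knockout and 1.10 in the control, against 0.778 to 0.898 in the other 6 libraries, so the knockout and the control stood apart from the rest in read density of the whole chromosome. For cell markers, the higher of the bins at the start and the end of each gene was taken in each library. The median of these over 8 pluripotency genes was 3.0 for H3K27ac and 3.07 in the input. Over 5 fibroblast feeder genes it was 2.02 and 2.13. By this measure the H3K27ac library did not set the pluripotency genes apart from input. Taking the higher bin can raise the shallow input more than H3K27ac, and the size of that was not tested. The H3K27ac values here are read only with these limits.

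Promoter sequence is shown first because anti-FLAG bins raised over their surroundings lay around an internal start of Gm34081 and, in RGM, at the Meg3 start. Each stretch runs from 250 bases before to 50 after a RefSeq transcript start (GRCm38.p6), in the direction of transcription. Capitals mark TGCGC or TGCCGC on either strand, and TGCGC followed after 3 bases by TATA. The first and last patterns stand for the best known letters of a GZF1 site and the second for a ZFP57 site, and they were chosen with these sequences in view.
Meg3, chr12:109540746-109541045, plus strand: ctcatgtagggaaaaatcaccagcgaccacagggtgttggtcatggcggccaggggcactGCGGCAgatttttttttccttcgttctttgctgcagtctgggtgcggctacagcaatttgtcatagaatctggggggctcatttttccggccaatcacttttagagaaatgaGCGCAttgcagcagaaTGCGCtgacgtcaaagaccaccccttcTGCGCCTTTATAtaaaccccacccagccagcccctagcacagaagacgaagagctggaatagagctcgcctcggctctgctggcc
Gm34081, outer start, chr12:109540100-109540399, minus strand: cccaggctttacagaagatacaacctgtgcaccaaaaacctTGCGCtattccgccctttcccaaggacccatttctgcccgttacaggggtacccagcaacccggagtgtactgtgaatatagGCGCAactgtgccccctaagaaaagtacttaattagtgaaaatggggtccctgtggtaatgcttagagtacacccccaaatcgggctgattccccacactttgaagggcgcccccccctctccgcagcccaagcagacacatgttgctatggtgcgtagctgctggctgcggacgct
Gm34081, internal start in the IG-DMR, chr12:109526220-109526519, minus strand: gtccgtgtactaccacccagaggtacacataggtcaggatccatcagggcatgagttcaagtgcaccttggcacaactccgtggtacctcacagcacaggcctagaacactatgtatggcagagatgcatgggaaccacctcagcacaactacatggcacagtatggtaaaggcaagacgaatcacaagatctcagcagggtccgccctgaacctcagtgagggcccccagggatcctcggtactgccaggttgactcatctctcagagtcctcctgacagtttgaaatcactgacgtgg
The stretch at the first Meg3 start held TGCGC 3 times and TGCCGC 1 time, and the copy nearest the start, TGCGCCTTTATA, was followed by TATA and ended 23 bases before the first transcribed base. Only 4 of 32,851 promoter stretches in the table (0.0122%) held that longer pattern, whereas 30.4% held TGCGC and 11.6% held TGCCGC. The outer start of Gm34081 held TGCGC 2 times. The internal start in the IG-DMR held none of the patterns, nor did the second Meg3 start (first base 109,545,398), the 3 other Gm34081 starts (first bases 109,539,764, 109,536,732 and 109,517,221) or the single stretches of Rian and Mirg, none of which is printed, and the letters of the strongest bin itself were not read because no genome sequence was used. The number of CG dinucleotides was 13 at the first Meg3 start, 11 at the outer Gm34081 start, 6 at the internal one, 0 at Rian and 10 at Mirg, against a median of 7 over all stretches. A match is a description of the letters and not a measured binding site.

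The anti-FLAG signal was highest in the IG-DMR, inside Gm34081. In RGM the rest of the 4 genes also lay above the genome average. The density there was 1.64 over Gm34081 outside the IG-DMR, 2.68 at the Meg3 start, 1.46 over the Meg3 body, 1.09 over Rian and 1.46 over Mirg. In Cas9 the same windows had 0.988, 1.21, 0.976, 0.855 and 1.02. The strongest bin, 109,527,001 to 109,528,000, held 460.35 reads and a density of 17.4 (95% exact Poisson interval 15.8 to 19.1) in RGM, and 368.5 reads and a density of 13.5 (12.2 to 15.0) in Cas9. It begins 13.995 kb before the Meg3 start. Among all autosomal bins 76 had a higher density in RGM and 110 in Cas9. The bin before it, which holds the internal Gm34081 start printed above, had a density of 8.94 in RGM and 4.95 in Cas9, and the bin after it 5.42 in RGM and 4.28 in Cas9. These 3 bins held the summit in both lines. On the side away from Meg3 it had a shoulder, as the bin at 109,525,001 had 3.70 in RGM and 2.04 in Cas9, or 1.98 times the median of its surroundings in RGM and 1.93 times in Cas9. On the side toward Meg3 the bins at 109,529,001 and 109,530,001 had 1.47 and 1.79 in RGM and 1.82 and 1.65 in Cas9.

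**Figure D1:**
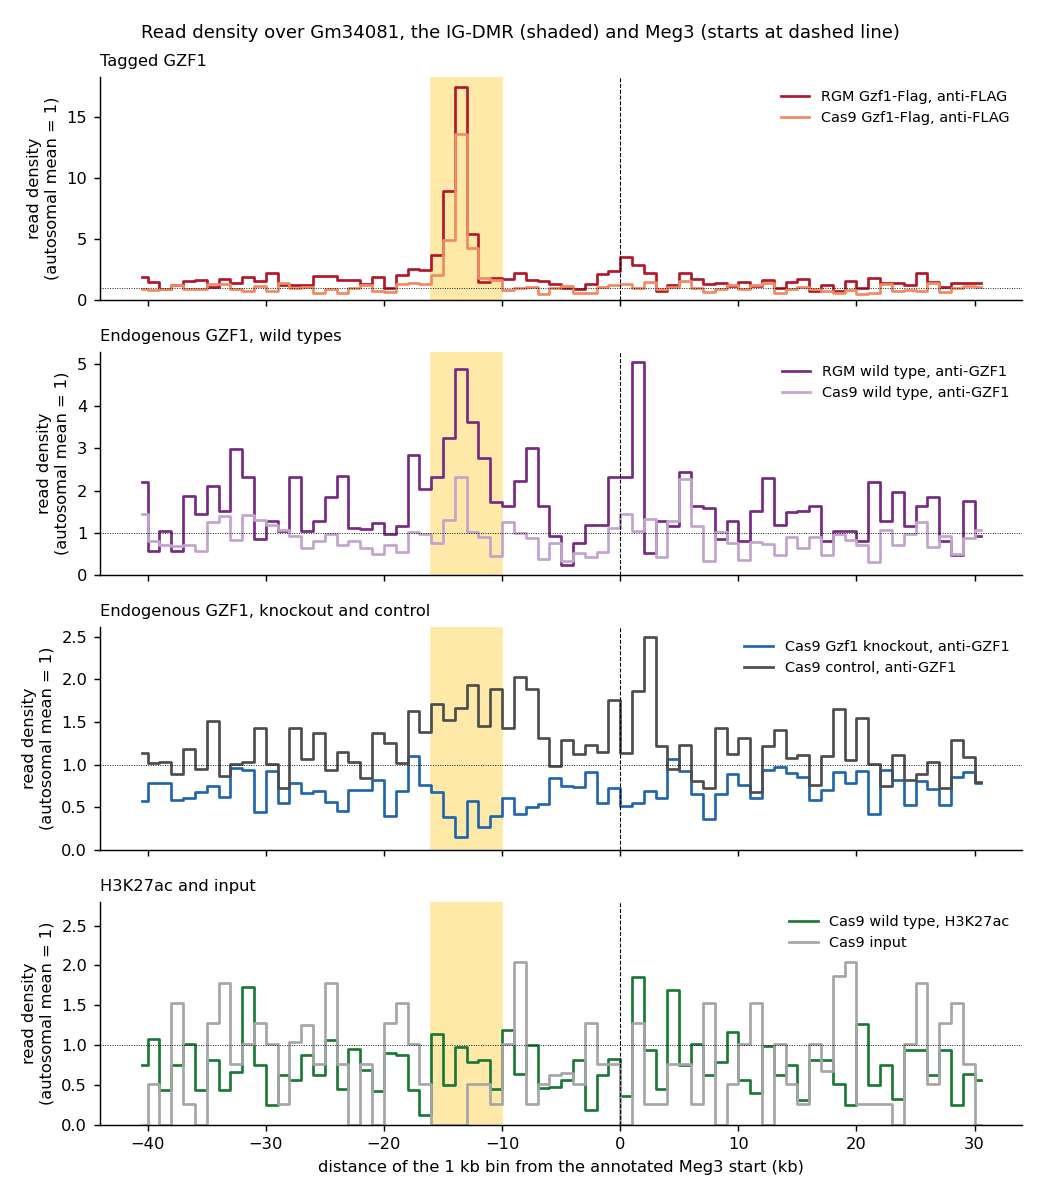
Read density (autosomal mean = 1) in 1 kb bins against the distance from the annotated Meg3 start, in 4 panels of 2 libraries each, with the IG-DMR shaded. Anti-FLAG density reaches 17.4 in RGM and 13.5 in Cas9 within the shaded window, while the knockout has its lowest value of the region, 0.152, in that same bin.

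Endogenous GZF1 showed a lower summit in this bin in each wild type. The density there was 4.88 (3.52 to 6.59) from 42 reads in RGM and 2.33 (1.76 to 3.04) from 55 reads in Cas9, which was 2.91 times the median of the surrounding bins (10 kb on either side) in RGM and 3.06 times in Cas9. It was the highest bin of Gm34081 in each wild type, but 11,555 autosomal bins in RGM and 76,041 in Cas9 stood higher. Nor was such a summit particular to the IG-DMR. In Cas9 wild type the Meg3 bin at 109,546,001 had 2.28 (1.71 to 2.98), which was 3.07 times its surroundings. In RGM wild type the Meg3 bin at 109,542,001 had 5.04, which was 3.94 times its surroundings. Over the whole IG-DMR window the density was 3.10 (2.63 to 3.61) in RGM wild type and 1.13 (0.962 to 1.32) in Cas9 wild type. All 6 bins lay above the genome average in RGM wild type, and 3 of the 6 did in Cas9 wild type.

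Only the IG-DMR summit passed the local threshold with anti-FLAG in both lines. A bin counted as raised when it held at least 20 reads and at least 2 times the median of its neighbours up to 10 kb away on either side. In RGM anti-FLAG 5 of 138 member bins with enough reads were raised, against 3.08% of autosomal bins: the 3 bins of the summit, the bin at the Meg3 start and the last bin of Mirg. In Cas9 anti-FLAG the 3 summit bins were raised out of 117, against 1.7%. In Cas9 wild-type anti-GZF1 the count was 3 of 71, against 3.28%, namely the strongest IG-DMR bin, a bin of Meg3 at 109,546,001 and the last bin of Mirg. With the same antibody 1 of 118 was raised in the knockout, against 0.358%, and 1 of 147 in the control, against 0.295%. These counts are few and near the background shares, so at this threshold the number of raised bins does not set the 4 genes apart. At 3 times, RGM anti-FLAG had 3 of 138, against 0.537% of autosomal bins, and Cas9 anti-FLAG had 3 of 117, against 0.220%. Cas9 wild type then had 2 of 71, against 0.444%, and the knockout and the control had 0. The summit bin itself stood 10.1 times above its surroundings in RGM anti-FLAG and 12.2 times in Cas9 anti-FLAG.

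The bins whose values over the 8 libraries came nearest to the summit bin lay elsewhere in the genome and differed from it in the knockout. On log2(density + 0.5) the 5 nearest bins were at a Euclidean distance of 1.53 to 1.97. They lie by Prkar2b, a regulatory subunit of protein kinase A (chromosome 12, 32,010,001), by Gnal, a G-protein subunit of olfactory neurons (chromosome 18, 67,087,001), by the deubiquitinase gene Usp25 (chromosome 16, 77,041,001), and at 2 places with no gene within 5 kb (chromosome 6, 127,252,001 and chromosome 4, 100,631,001). Their anti-FLAG density was 8.30 to 14.7 in RGM and 9.23 to 14.01 in Cas9. Their knockout over control ratio was 0.535 to 0.803, where the summit bin had 0.0914. They were chosen by these values, and the ratios are given as a description.

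The Gzf1 knockout had a lower anti-GZF1 density than the control in all 41 bins of Gm34081, most of all in the IG-DMR. The 1 Mb around the genes had a ratio of 0.810 itself. Relative to it the bins at 109,508,001, 109,509,001, 109,511,001, 109,519,001 and 109,535,001 were above 1, at 1.02 to 1.18, and the others of Gm34081 below 1. In the summit bin the knockout held 5 reads, a density of 0.152 (0.0493 to 0.354), and the control held 59.4 reads, a density of 1.66 (1.27 to 2.14). The ratio was 0.0914 (0.0288 to 0.227, exact Clopper-Pearson interval). The neighbouring summit bins held 12.6 and 19 reads in the knockout against 54.6 and 69 in the control, ratios of 0.251 and 0.299. The 3 other bins of the window had ratios of 0.399, 0.188 and 0.211, so that every bin of the IG-DMR was at least 2 times lower in the knockout. The control had no summit of its own there: its 6 bins had densities of 1.45 to 1.93, and the strongest anti-FLAG bin was 1.21 times its surroundings. In the knockout that bin was 0.237 times its surroundings. The input was likewise lower here than in the other windows, with 5 reads over the 6 bins and a density of 0.212 (0.0689 to 0.495), and its part in the knockout value was not tested.

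The low stretch in the knockout was wider than the anti-FLAG summit. It ran unbroken over 10 bins from 109,525,001 to 109,535,000, with 149.5 reads in the knockout and 602 in the control (ratio 0.270, 0.225 to 0.324). Of 63,679 autosomal runs of bins at or below 0.5, no other was as long, and the next held 8 bins (chromosome 4, 111,894,001 to 111,902,000). The run depended on the scaling. Relative to the 1 Mb around the genes, the bins at 109,531,001 and 109,534,001 had ratios of 0.520 and 0.506. The run then split into the IG-DMR window and the neighbouring bins at 109,532,001 and 109,533,001, which stayed low at 0.259 and 0.332. The rank among runs was not recomputed. A second run of 5 bins from 109,539,001 to 109,544,000 spanned both ends of the gap between Gm34081 and Meg3, with 99.8 reads in the knockout and 300.75 in the control (ratio 0.360, 0.285 to 0.454). Relative to the 1 Mb its first 3 bins, those of the Meg3 start, had 0.586, 0.511 and 0.559 and were no longer at or below 0.5. Its bins at 109,542,001 and 109,543,001 stayed below 0.5, at 0.363 and 0.342. Outside the IG-DMR the lowest bin of Gm34081 was 109,532,001, with 14 reads in the knockout and 72.55 in the control (0.210, 0.109 to 0.372). In the Meg3 body it was 109,543,001, with 22.8 reads in the knockout and 89.3 in the control (0.277, 0.169 to 0.448), the one member bin that was raised over its surroundings in the control. Across all 147 member bins 30 were at or below 0.5, against 2.87% of autosomal bins, and 0 were at or above 2, against 2.59%. They were 16 of 41 in Gm34081, 3 of 3 at the Meg3 start, 4 of 30 in the Meg3 body, 7 of 59 in Rian and 2 of 16 in Mirg, with the 2 bins shared by Gm34081 and the Meg3 start counted in both. The ratio was below 1 in 132 of 147 member bins, against 50.1% of autosomal bins, with a median of 0.675 over the members and 0.999 over all autosomal bins tested. The surrounding 1 Mb had a ratio of 0.810, and the count of bins below 1 was not repeated relative to it.

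**Figure D2:**
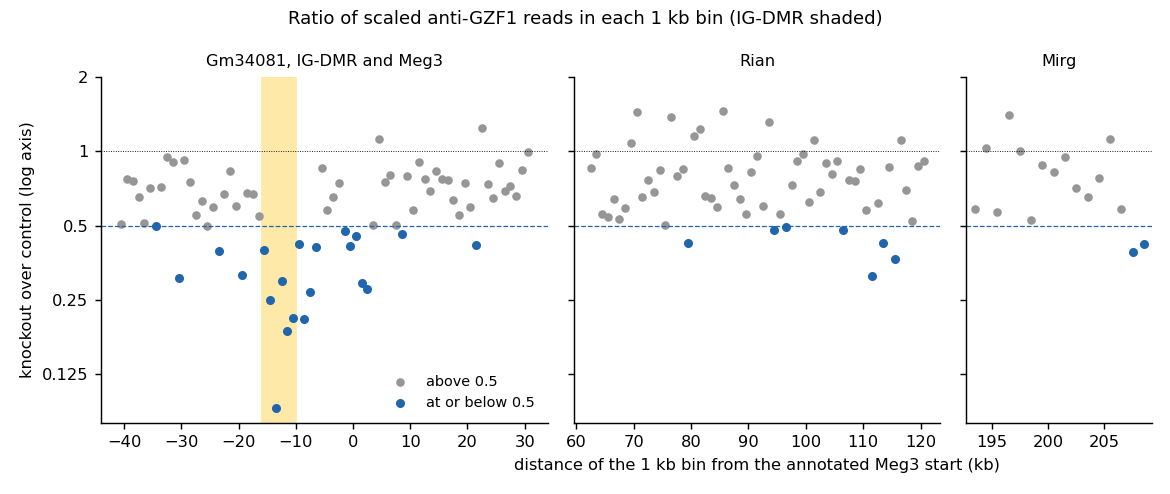
Ratio of scaled anti-GZF1 reads in the knockout over the control in each member bin (log axis), against the distance from the annotated Meg3 start, with bins at or below 0.5 in blue and the IG-DMR shaded. The lowest bin, at 0.0914, lies in the IG-DMR, and the bins of Rian and Mirg scatter around medians of 0.732 and 0.744.

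At Rian and Mirg the knockout was lower than the control by little more than in their surroundings, and was not lower than the wild type beyond counting error. The 1 Mb around the genes, without the member bins, had a density of 0.898 in the knockout and 1.11 in the control, a ratio of 0.810. Over Rian the knockout had a density of 0.961 (0.918 to 1.01) and the control 1.30 (1.25 to 1.35), a ratio of 0.738 (0.695 to 0.783). Set against the 1 Mb around the genes that ratio was 0.910 (0.858 to 0.966). Over Mirg the ratio was 0.738 (0.654 to 0.832), or 0.911 (0.807 to 1.03) relative to the 1 Mb, an interval that holds 1. Cas9 wild type with the same antibody had 0.850 (0.802 to 0.900) over Rian, so the knockout was 1.13 (1.05 to 1.22) times the wild type there, and the direction turned. Over Mirg the knockout was 0.964 (0.837 to 1.11) times the wild type. A comparison with the wild type was added after the data were seen.

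The deficit in the IG-DMR and at the Meg3 start was present against both libraries. Over the IG-DMR the density was 0.411 (0.326 to 0.510) in the knockout, 1.13 in the wild type and 1.69 (1.52 to 1.88) in the control, so that the knockout was 0.242 (0.188 to 0.308) times the control and 0.363 (0.274 to 0.477) times the wild type. At the Meg3 start it was 0.597 (0.455 to 0.770) in the knockout, 1.03 (0.809 to 1.30) in the wild type and 1.35 (1.14 to 1.59) in the control, so that the knockout was 0.442 (0.321 to 0.602) times the control and 0.579 (0.404 to 0.827) times the wild type. Gm34081 outside the IG-DMR had 0.689 in the knockout, 0.854 in the wild type and 1.21 in the control, and the knockout was 0.568 (0.520 to 0.619) times the control and 0.806 (0.728 to 0.894) times the wild type. The Meg3 body had 0.755 in the knockout, 0.857 in the wild type and 1.14 in the control, and the knockout was 0.662 (0.604 to 0.726) times the control and 0.882 (0.791 to 0.983) times the wild type. Bins at or below 0.5 against the wild type numbered 13 of 147, against 6.27% of autosomal bins. They were 3 of 6 in the IG-DMR, 5 of 35 in Gm34081 outside it and 1 of 3 at the Meg3 start. The others were 1 of 30 in the Meg3 body, 1 of 59 in Rian and 2 of 16 in Mirg. Both ratios share the knockout library and are not separate evidence.

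The wild type itself was below the control over every window of the 4 genes, though both were precipitated with the same antibody from the same line. The ratio of wild type to control was 0.704 (0.643 to 0.770) over Gm34081 outside the IG-DMR, 0.67 (0.550 to 0.805) over the IG-DMR and 0.764 (0.568 to 1.02) at the Meg3 start. It was 0.751 over the Meg3 body, 0.653 over Rian and 0.765 over Mirg. All of chromosome 12 had 0.707, so the values of these windows lay around that of the chromosome. The knockout and wild-type comparisons share the control library.

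**Figure D3:**
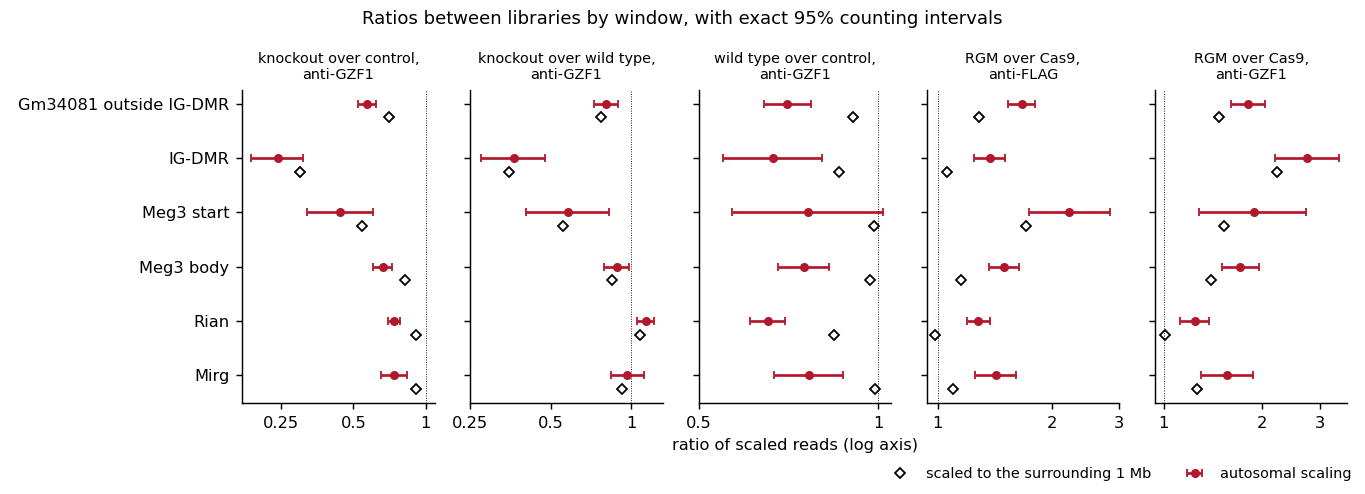
Ratios of scaled reads by window for 5 pairs of libraries (log axes), with exact 95% counting intervals as bars and the value after scaling to the surrounding 1 Mb as open diamonds. The IG-DMR and the Meg3 start lie below 1 in both knockout panels, while Rian is at 0.738 against the control and 1.13 against the wild type.

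RGM carried more signal than Cas9 over every one of the 4 genes with anti-FLAG, and with anti-GZF1 when the wild types were compared. The Cas9 control had 1.30 (1.25 to 1.35) over Rian, above the 1.06 (0.970 to 1.15) of RGM wild type. Once scaled to the surrounding 1 Mb the anti-FLAG ratio at Rian fell to 0.986. The intervals then also held 1 at Rian with anti-GZF1 (1.01, 0.912 to 1.12) and at Mirg with anti-FLAG (1.10, 0.967 to 1.24). The difference with anti-FLAG was larger at the Meg3 start than in the other windows. The counting interval of the Meg3 start overlapped that of Gm34081 outside the IG-DMR (ratio 1.66, 1.53 to 1.80), which shares bins with it. The 3 bins of the Meg3 start had an anti-FLAG density of 2.68 (2.33 to 3.07) in RGM and 1.21 (0.985 to 1.48) in Cas9, a ratio of 2.21 (1.73 to 2.84). The bin just past the first base of Meg3 held 92.8 reads, a density of 3.51 (2.83 to 4.30), in RGM and 35.95 reads, a density of 1.32 (0.925 to 1.83), in Cas9. With anti-GZF1 the Meg3 start had 1.94 (1.44 to 2.56) in RGM wild type and 1.03 in Cas9 wild type, a ratio of 1.88 (1.28 to 2.73). The highest RGM anti-GZF1 bin of Meg3 was the next one, at 109,542,001, with 43.4 reads and a density of 5.04 (3.65 to 6.78), against 24.45 reads and 1.04 in Cas9. It was above the 4.88 of the IG-DMR summit in the same library, and it was also the Meg3 bin highest for H3K27ac, at 1.85. With anti-FLAG this bin had 2.91 (2.29 to 3.63) in RGM and 0.976 in Cas9, and the highest Cas9 bin of the Meg3 body was 109,546,001, at 1.54.

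Over the IG-DMR the lines differed less with anti-FLAG than with anti-GZF1. The ratio of RGM to Cas9 was 1.37 (1.25 to 1.505) with anti-FLAG and 2.74 (2.19 to 3.43) with anti-GZF1, and the intervals do not overlap. The anti-GZF1 ratio was taken to the Cas9 wild type, at 1.13, while the Cas9 control had 1.69 over the window. Counting intervals do not cover that difference between libraries. The surrounding 1 Mb was itself higher in RGM, by a ratio of 1.30 with anti-FLAG and 1.23 with anti-GZF1. Relative to it the IG-DMR ratio was 1.06 (0.960 to 1.16) with anti-FLAG and 2.23 (1.78 to 2.79) with anti-GZF1. Over Gm34081 outside the IG-DMR the ratio was 1.66 (1.53 to 1.80) with anti-FLAG and 1.81 (1.61 to 2.04) with anti-GZF1. Over the Meg3 body it was 1.49 (1.36 to 1.64) with anti-FLAG and 1.71 (1.503 to 1.95) with anti-GZF1. The highest anti-FLAG bin of Gm34081 outside the IG-DMR was 109,523,001 in both lines, with 2.55 in RGM and 1.45 in Cas9. Of the 41 Gm34081 bins 37 lay above the genome average in RGM anti-FLAG and 23 in Cas9 anti-FLAG, and 34 in RGM wild type and 13 in Cas9 wild type. The lines differ in strain, clone and library, and these cannot be told apart.

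Rian, the longest of the genes, had a density from 0.850 in Cas9 wild type to 1.30 in the Cas9 control over the 6 anti-FLAG and anti-GZF1 libraries. Its anti-FLAG density was 1.09 (1.04 to 1.15) in RGM and 0.855 (0.810 to 0.901) in Cas9, a ratio of 1.28 that became 0.986 (0.918 to 1.06) relative to the surrounding 1 Mb. With anti-GZF1 it was 1.06 in RGM wild type and 0.850 in Cas9 wild type, a ratio of 1.24 that became 1.01 (0.912 to 1.12). No bin of Rian reached 2 times its surroundings with anti-FLAG. The highest was 109,610,001 in RGM, with 2.16 (1.63 to 2.79), and 109,612,001 in Cas9, with 1.67 (1.22 to 2.23), in a stretch where neighbouring bins were slightly raised in both lines. The 10 bins that hold 11 annotated small nucleolar RNA genes had a median anti-FLAG density of 1.02 in RGM and 0.835 in Cas9, against 1.07 in RGM and 0.853 in Cas9 in the other 49 bins. The lowest knockout bin of Rian, 109,652,001, held 16.2 reads in the knockout and 56 in the control (0.314, 0.166 to 0.549). The one member bin raised over its surroundings in the knockout, 109,617,001, was also in Rian, with a density of 1.70 in the knockout and 1.24 in the control. Its level did not pass 2 times the control.

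Mirg had a modest excess at its far end, present in most libraries. Over the gene the anti-FLAG density was 1.46 (1.34 to 1.57) in RGM and 1.02 (0.931 to 1.12) in Cas9. In its last bin, 109,749,001 to 109,750,000, it was 2.95 (2.33 to 3.68) in RGM and 1.34 (0.941 to 1.85) in Cas9. With anti-GZF1 the same bin had 2.60 in RGM wild type and 1.95 in Cas9 wild type, and 0.850 in the knockout against 2.02 in the control. H3K27ac had 1.74 and the input 2.04 (0.880 to 4.02), so the bin was high without a GZF1 or FLAG antibody as well. The lowest knockout ratio of Mirg was in the bin before it, with 18 reads in the knockout and 50 in the control (0.391, 0.215 to 0.682). The highest Cas9 anti-FLAG bin of Mirg was another, 109,737,001, with 1.46. The 8 Mirg bins that hold its 13 annotated microRNA genes had a median anti-FLAG density of 1.48 in RGM and 0.901 in Cas9, against 1.17 in RGM and 1.051 in Cas9 in the other 8, so the order of the medians was opposite in the lines.

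**Figure D4:**
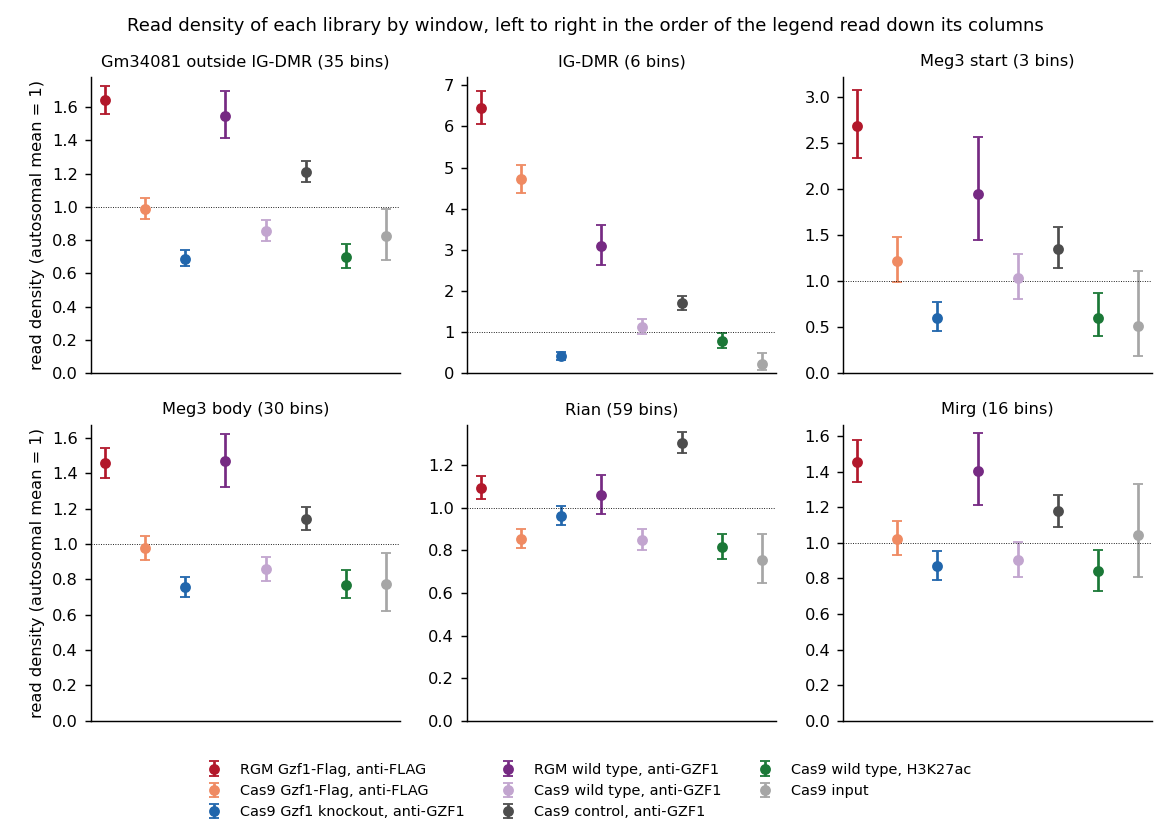
Read density (autosomal mean = 1) of each library in 6 windows of the genes, with exact 95% Poisson intervals. Anti-FLAG density is highest in the IG-DMR at 6.45 in RGM and 4.71 in Cas9, and the control is the highest of the libraries over Rian at 1.30.

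H3K27ac showed no window above the genome average. Its density was 0.702 over Gm34081 outside the IG-DMR, 0.779 over the IG-DMR, 0.602 at the Meg3 start, 0.769 over the Meg3 body, 0.816 over Rian and 0.841 over Mirg. The input had 0.822, 0.212, 0.509, 0.773, 0.756 and 1.04 in the same windows. The ratio of H3K27ac to input was 3.67 (1.5 to 11.6) over the IG-DMR, which rests on 74.2 H3K27ac reads and 5 input reads. The interval of the ratio held 1 in the other 5 windows. With bins of very low or very high input left out, the IG-DMR ratio was 1.615 (0.633 to 5.36), an interval that holds 1. With the other settings the IG-DMR interval stayed above 1. With median scaling the interval lay below 1 at Gm34081 outside the IG-DMR (0.747, 0.605 to 0.930) and Mirg (0.706, 0.531 to 0.940). Both also lay below 1 with those bins left out. With scaling to the surrounding 1 Mb the interval lay above 1 at Rian (1.22, 1.03 to 1.45). The highest H3K27ac bins were 109,509,001 in Gm34081 at 1.73, 109,542,001 in Meg3 at 1.85, 109,613,001 in Rian at 1.57 and the last bin of Mirg at 1.74.

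The paternally expressed protein-coding genes of the domain served for comparison. Dlk1, a Notch-like ligand gene, had an anti-FLAG density of 1.76 in RGM and 1.26 in Cas9, and Rtl1, a retrotransposon-derived gene whose annotated span overlaps 8 Meg3 bins, had 1.44 in RGM and 0.830 in Cas9. Dio3, a thyroid hormone deiodinase gene, had 3.33 in RGM and 2.20 in Cas9, with 1.95 in the input. With anti-FLAG all 3 were below the IG-DMR, which had 6.45 in RGM and 4.71 in Cas9. The widths are unlike, with 6 bins in the IG-DMR, 12 in Dlk1, 41 in Rtl1 and 3 in Dio3. Gm34081 as a whole, with its 41 bins, had 2.35 in RGM and 1.53 in Cas9, below Dio3. With anti-GZF1 in the wild types the order differed. Dio3 had 4.02 (3.29 to 4.88) in RGM wild type and 2.59 (2.22 to 2.99) in Cas9 wild type. These were above the 3.10 and 1.13 of the IG-DMR in the same libraries, with counting intervals that overlap in RGM and do not in Cas9. The Cas9 input also differed, at 1.95 over Dio3 and 0.212 over the IG-DMR, so this order is one of read density and not of density over input. Dlk1 had 1.95 in RGM wild type, below the IG-DMR, and 1.40 (1.27 to 1.55) in Cas9 wild type, above it with counting intervals that overlap. Rtl1, with 1.33 in RGM wild type and 0.767 in Cas9 wild type, was below it in both. In the Cas9 control, with the same antibody, the IG-DMR was the highest, at 1.69 (1.52 to 1.88). Dio3 had 1.56 (1.33 to 1.81) there, with an interval that overlaps that of the IG-DMR. Dlk1 had 1.23 (1.13 to 1.34) and Rtl1 0.964 in the control. The ratio of knockout to control was 0.785 (0.686 to 0.898) at Dlk1, 0.784 (0.723 to 0.850) at Rtl1 and 0.790 (0.623 to 1.01) at Dio3, close to the 0.738 of Rian and Mirg and to the 0.810 of the surrounding 1 Mb.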

How the data were processed

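Chromatin immunoprecipitation libraries were taken from a table of 1 kb bins with 8 columns. Per the submitters' processing notes, cutadapt, Bowtie2 2.5.4, SAMtools and deepTools were used with mm10; how duplicates and poorly mapped reads were handled is not given in the sources used here. The deposited table gives, as the authors made it, estimated counts of reads in each bin, in multiples of 0.05 and without scaling to depth. Each library was divided by its autosomal mean. The table used holds 1 library per group, so no test was run; a second RGM Gzf1-Flag anti-FLAG library and 3 others were not analysed here. Read counts carry 95% exact Poisson intervals, ratios exact binomial (Clopper-Pearson) intervals on rounded counts, and a count of 0 allows 3 reads; sequenced reads are not independent molecules, so these cover counting error only. A bin was raised at 2 times the median of its neighbours up to 10 kb away on either side with 20 reads or more. RGM wild-type anti-GZF1, H3K27ac and input were left out of that count because 20 reads is itself a high value there. Knockout ratios needed 20 reads in both libraries together. In each window the bins named are the highest with anti-FLAG per line, the lowest in the knockout and the highest for H3K27ac; other bins named were chosen after their values were seen. The gene windows, lists and members were chosen with earlier results of these data known. Planned windows before Gm34081 and between Gm34081 and Meg3 hold no bin of their own. Steps were tested on simulated data. Gene positions and promoter sequences are from RefSeq (GRCm38.p6), in which all 4 genes had a promoter entry. Alternatives were scaling to the median or to the surrounding 1 Mb, leaving out the highest bin, an input filter, other thresholds, and, added after the data were seen, the wild type in place of the control. Python 3.11.15, numpy 2.4.6, pandas 2.3.3, scipy 1.17.1 and matplotlib 3.10.9 were used.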

Additional observations from a re-analysis of the deposited data

How the results depend on the processing

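No paired analysis was possible because the table used holds 1 library of each group; the second RGM Gzf1-Flag anti-FLAG library was not analysed here. Of 150 recomputed comparisons 111 stayed within the counting interval or within 1.5 times the count. By this measure scaling to the median bin moved none of the comparisons. Scaling to the surrounding 1 Mb moved most. Knockout over control became 0.701 over Gm34081 outside the IG-DMR, 0.817 over the Meg3 body, 0.910 over Rian and 0.911 over Mirg. Wild type over control became 0.908 over Gm34081 outside the IG-DMR, 0.861 over the IG-DMR, 0.968 over the Meg3 body, 0.842 over Rian and 0.987 over Mirg. RGM over Cas9 with anti-FLAG became 1.28, 1.06, 1.71, 1.15 and 1.10 over Gm34081 outside the IG-DMR, the IG-DMR, the Meg3 start, the Meg3 body and Mirg, and turned to 0.986 over Rian. With anti-GZF1 it became 1.48, 1.39, 1.01 and 1.27 over Gm34081 outside the IG-DMR, the Meg3 body, Rian and Mirg. With the wild type in place of the control the knockout ratio was 0.806 over Gm34081 outside the IG-DMR, 0.363 over the IG-DMR, 0.882 over the Meg3 body and 0.964 over Mirg, and it reversed to 1.13 over Rian. Wild type over control in the IG-DMR was 0.523 without its highest bin. With only bins of 0.25 to 3 times the mean input it was 0.450 there and 0.568 at the Meg3 start, RGM over Cas9 with anti-FLAG was 1.12 over the IG-DMR, and H3K27ac over input became 0.890 over Rian. At 1.5 times local background 16 of 138 bins were raised in RGM anti-FLAG (14.5% of autosomal bins), 16 of 117 in Cas9 anti-FLAG (11.1%), 19 of 71 in Cas9 wild type (16.2%), 7 of 118 in the knockout (5.31%) and 6 of 147 in the control (4.58%). At 3 times RGM anti-FLAG had 3 (0.537%), Cas9 anti-FLAG had 3 (0.220%) and Cas9 wild type had 2 (0.444%). The knockout (0.0222%) and the control (0.0175%) had 0. Bins lower in the knockout numbered 16 of 147 after scaling to the 1 Mb (0.885% of autosomal bins) and 72 of 147 at a ratio 1.5-fold lower (12.2%). The causes were not tested. Of 192 recomputed densities 49 left their counting interval. Depth limits the input most, where 1 read is a density of 0.255 and an empty bin allows up to 0.764, and RGM wild type next, where an empty bin allows up to 0.348.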
